A study of Homo sapiens with 3 samples.

Results

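The 42 DNA replication genes examined here encode the proteins that mark replication origins, load and activate the DNA helicase, and synthesise and seal the new strands. They were listed by name and belong to 12 complexes or roles. All 42 were found among the 20162 protein-coding genes of the annotation, GENCODE release 44 mapped to hg19. YTHDC1 is a reader of the RNA modification N6-methyladenosine (m6A) and resides in the nucleus. Its occupancy was measured by ChIP-seq on the chromatin of wild-type A549 cells, an established human lung adenocarcinoma line with no treatment named in the labels, in 3 samples of a single group. The authors pooled the 3 replicates before calling broad peaks. The data are therefore 1 set of 6368 peaks, without replicate values, so that no replicate error can be given, and the sequencing depth behind it is unknown. Neither a control library nor a YTHDC1 knockdown was part of the data used here, and a called peak is not a measure of affinity.

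Before replication, the origin recognition complex (ORC) binds origins and, with CDC6 and CDT1, loads the MCM2 to MCM7 helicase as a double ring, whereas geminin (GMNN) holds CDT1 in check. In S phase the CDC7 kinase with its DBF4 subunit, MCM10, CDC45 and the GINS proteins turn the loaded ring into a moving helicase. DNA polymerase alpha and its primase lay down primers, replication factor C (RFC) loads the PCNA clamp, polymerases delta and epsilon extend the strands, replication protein A (RPA) coats single-stranded DNA, and DNA ligase 1 (LIG1) seals nicks. Many of these genes are known targets of the E2F transcription factors, which act at the transition from G1 to S phase.

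A gene was counted as having a start peak if a peak lay within 200 bases of any of its annotated transcription start sites, the window stated by the study. Start peaks were found at 13 of the 42 replication genes, or 30.95% (95% Wilson interval 19.1 to 46.0, with genes as units), against 3163 of 20162 protein-coding genes, or 15.7%. The 13 genes were ORC4, ORC5, ORC6, CDC6, GMNN, MCM7, GINS1, POLA2, POLD1, POLD3, RFC1, RPA1 and LIG1. A further 2 genes, PRIM2 and RFC4, had peaks inside the gene away from their starts (4.76% of the 42), against 8.66% of all protein-coding genes. The other 27 replication genes had neither. The members were listed with results of these data in view, so their share is given beside the background as a description.

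Genes differ in how many starts they offer and in how CpG-rich their promoters are, and the share was therefore also read within such classes. The replication genes had a median of 8 annotated starts against 5 for all protein-coding genes. The ratio of observed to expected CpG in their promoters, taken as the 250 bases before to 50 bases after the canonical start, had a median of 0.98 against 0.77. Promoter GC was alike, at 63.5% and 63.7%. All 13 genes with a start peak had 5 or more starts and a promoter CpG ratio of 0.6 or more. Among genes with 5 or more starts, 13 of 35 replication genes (37.1%, interval 23.2 to 53.7) had a start peak, against 20.5% of protein-coding genes. Among genes with a CpG ratio of 0.6 or more it was 13 of 40 (32.5%, interval 20.1 to 48.0) against 21.3%, and with both criteria 13 of 33 (39.4%, interval 24.7 to 56.3) against 23.7%. The background lay inside the members' interval among CpG-rich promoters and below it in the other classes. With the canonical start of each gene alone, 10 of 42 (23.8%) had a peak against 11.7%.

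**Figure D1:**
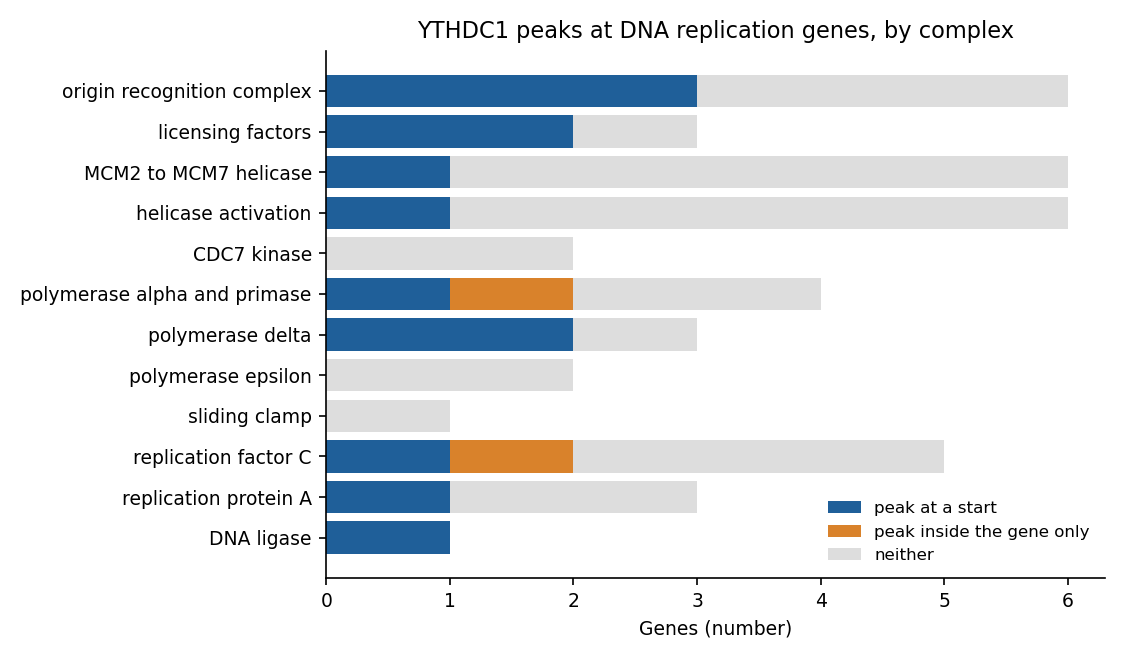
Number of DNA replication genes with a YTHDC1 peak at a start, with a peak only inside the gene, and with neither, for each of 12 complexes. Start peaks were found at 3 of 6 origin recognition genes and 2 of 3 polymerase delta genes, and at 1 of 6 MCM2 to MCM7 genes. The share over all protein-coding genes was 15.7%.

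Of the origin recognition genes, ORC1, ORC2 and ORC3 had no start peak. ORC4, ORC5 and ORC6 had one (3 of 6), against 15.7% of all protein-coding genes. Of these peaks only that of ORC6 remained when a q-value under 0.05 or a midpoint inside the window was required. The ORC6 peak (chr16:46723666-46723933, 268 bases) had a −log10 q-value of 2.85, the highest of the 13, where the q-value is the false discovery rate that the peak caller gave to each peak. It ranked 626 of 6368. The ORC4 peak (chr2:148777848-148778320, 473 bases) had the lowest value of the 13, at 0.89, a q-value of 0.13. It covered the canonical start and 4 annotated starts of the gene. The ORC5 peak (chr7:103848648-103849217, 570 bases, −log10 q 1.14) lay upstream of the gene, with its near edge 153 bases from the closest ORC5 start. Among the subunits without a start peak, the nearest peak lay 148330 bases from ORC1, 57141 bases from ORC2 and 50839 bases from ORC3.

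The licensing factors had start peaks at 2 of 3 genes, against 15.7% of all protein-coding genes. With a q-value under 0.05 required only GMNN remained, and with the midpoint inside the window only CDC6. CDC6, the loader that recruits the helicase with ORC, had a peak of 422 bases over exon 1 and the start of intron 1 (chr17:38444141-38444562, −log10 q 1.17). GMNN, whose product geminin inhibits CDT1, had a peak of 438 bases at the same place in the gene (chr6:24775177-24775614, −log10 q 2.58). For CDT1 itself, the nearest peak lay 18207 bases from a start.

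Of the 6 subunits of the MCM2 to MCM7 ring, only MCM7 had a start peak. That peak was the widest of the 13, at 749 bases (chr7:99698142-99698890, −log10 q 1.12, a q-value of 0.0755), and 4 annotated MCM7 starts lay within it. The nearest peaks to MCM2, MCM3, MCM4, MCM5 and MCM6 lay 535563, 219083, 30511, 22886 and 108744 bases from a start. The share of the ring, 1 of 6 (16.7%), was close to the 15.7% of all protein-coding genes, and the MCM7 peak was lost with a q-value under 0.05 required.

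Of the 8 genes of helicase activation and the CDC7 kinase, 1 had a start peak (12.5%), a share close to the 15.7% of all protein-coding genes. GINS1, a GINS subunit, had a narrow peak of 259 bases over the end of exon 1 (chr20:25388377-25388635, −log10 q 2.64). GINS2, GINS3, GINS4, CDC45, MCM10, CDC7 and its activator DBF4 had none. CDC7 was among the genes farthest from any peak, at 1565730 bases.

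Of the polymerase alpha and primase genes, POLA2, the regulatory subunit, had a start peak of 328 bases (chr11:65029538-65029865, −log10 q 1.37, a q-value of 0.043). A start of an unnamed protein-coding gene of the annotation, ENSG00000285816, lay 139 bases from the same peak. The catalytic subunit gene POLA1 and the primase genes PRIM1 and PRIM2 had no start peak. PRIM2, the large primase subunit, had peaks in intron 7 (chr6:57262998-57263282, 285 bases, −log10 q 1.27) and intron 10 (chr6:57437028-57437259, 232 bases, −log10 q 1.14), both with a q-value above 0.05. Of the 31-mers in the intron 7 peak, 20.0% occurred more than once in hg19, where short reads can be placed ambiguously. The part of this in the peak was not tested.

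Polymerase delta had start peaks at POLD1, the catalytic subunit, and POLD3, an accessory subunit, and none at POLD2. These 2 of the 3 delta genes on the list stand against 15.7% of all protein-coding genes. POLD4, a delta subunit outside the list, had no start peak. With the canonical start alone, neither POLD1 nor POLD3 had a start peak. The POLD1 peak (chr19:50886710-50887298, 589 bases, −log10 q 1.06) lay upstream, 163 bases from the nearest POLD1 start and 306 bases from the canonical start. The POLD3 peak (chr11:74204129-74204714, 586 bases, −log10 q 2.32) lay 98913 bases upstream of the canonical POLD3 start. It came within 182 bases of an alternative POLD3 start. It held 2 annotated starts of LIPT2, a gene for an enzyme of lipoic acid synthesis, but not the canonical one, and a start of the antisense gene LIPT2-AS1. The catalytic subunit of polymerase epsilon, POLE, and its partner POLE2 had no start peak. Of the epsilon subunits outside the list, POLE4 had a start peak and POLE3 had none. POLE2 had a peak 4665 bases from a start, and POLD2 a peak 2170 bases from a start.

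Of the 6 clamp and clamp loader genes, 1 had a start peak (16.7%), close to the same background. PCNA, the clamp, was just outside the window of an alternative start. A peak of 486 bases (chr20:5107539-5108024, −log10 q 1.05) lay 267 bases from that start and 6935 bases upstream of the canonical PCNA start. The peak held 4 annotated starts of the neighbouring gene CDS2. RFC1, the large subunit of the clamp loader, was just inside, with a peak of 341 bases (chr4:39368179-39368519, −log10 q 0.97) 184 bases from a start. The next genes inside the limit were POLD3 at 182, POLD1 at 163 and ORC5 at 153 bases. The next outside it was RFC4, at 809 bases from an alternative start. RFC4 had a peak of 966 bases (chr3:186507865-186508830, −log10 q 2.08), with a GC share of 40.2%. Its midpoint fell in intron 8 of the canonical transcript, which has 11 exons. The peak ran from 15441 to 16406 bases downstream of the canonical start, towards the end of the gene, and was not confined to that intron. RFC2, RFC3 and RFC5 had none, and RFC2 was the gene farthest from a peak, at 2278910 bases.

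RPA1, the large RPA subunit, had a start peak of 346 bases (chr17:1732673-1733018, −log10 q 1.70), whereas RPA2 and RPA3 had none. This peak also held an annotated start of SMYD4, the gene that runs the other way from RPA1. LIG1 had a peak of 381 bases (chr19:48673235-48673615, −log10 q 2.296) that covered its canonical start and held 12 annotated LIG1 starts.

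The values of the 13 peaks were modest and like those of other genes. Their −log10 q ranged from 0.89 to 2.85 with a median of 1.37, against a median of 1.41 and a range of 0.61 to 14.8 for the strongest start peak of all protein-coding genes. A q-value under 0.05 was reached by 7 of 13 (53.8%), namely ORC6, GINS1, GMNN, POLD3, LIG1, RPA1 and POLA2, against 1806 of 3163 (57.1%). Their median width was 422 bases against 376. The quartiles of −log10 q were 1.12 and 2.32 for the replication genes and 1.04 and 1.97 for all protein-coding genes.

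**Figure D2:**
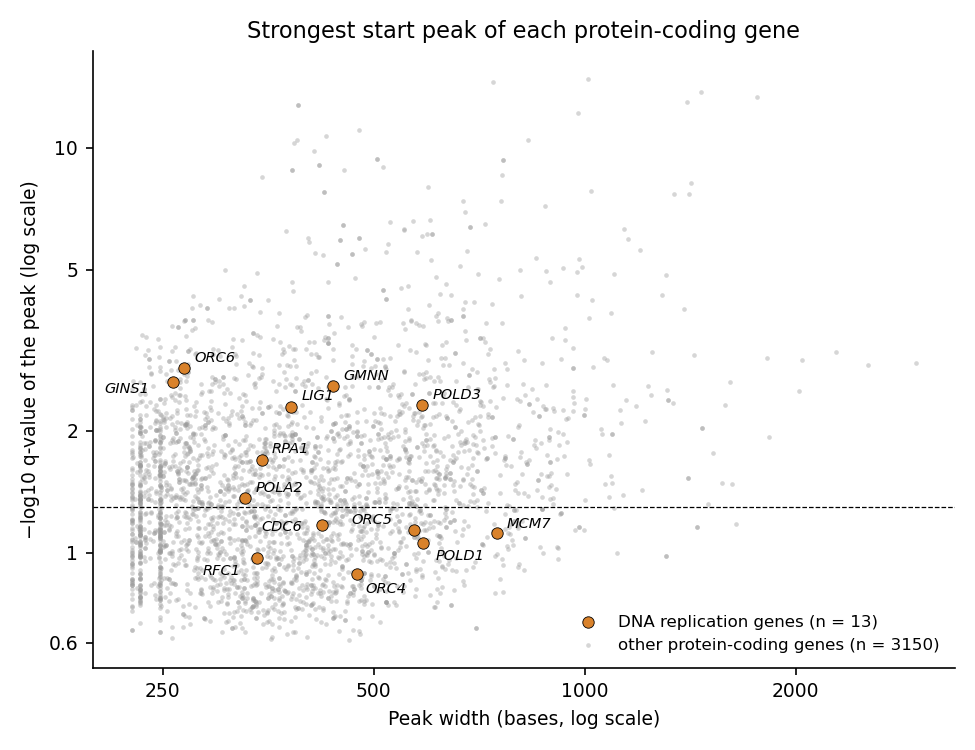
Width (x axis, bases, log scale) and −log10 q-value (y axis, log scale) of the strongest start peak of each protein-coding gene, with the 13 DNA replication genes named and the dashed line at a q-value of 0.05. The named genes lie within the cloud of the 3150 other genes, 7 of them above the line.

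Position set the peaks into a downstream and an upstream class. Within 1000 bases of the canonical start lay 12 of the 13 peaks, 8 with the midpoint downstream and 4 upstream (66.7% downstream), against 1735 and 999 peaks (63.5% downstream) for all protein-coding genes. The median midpoint was 208.5 bases downstream against 122.5 bases. In LIG1, GINS1, CDC6, ORC4, ORC6, GMNN and POLA2 the midpoint fell 176, 197, 220, 222, 228, 230 and 268 bases downstream. Thus 7 of 13 midpoints (53.8%) lay 150 to 300 bases downstream, against 21.0% of all start peaks, a range chosen after the values were seen. MCM7 followed at 504 bases. Only the ORC4 and LIG1 peaks covered the canonical start itself (15.4%), against 36.2% of all start peaks, and any annotated start of the gene lay inside the peak in 7 of 13 (53.8%) against 65.5%.

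**Figure D3:**
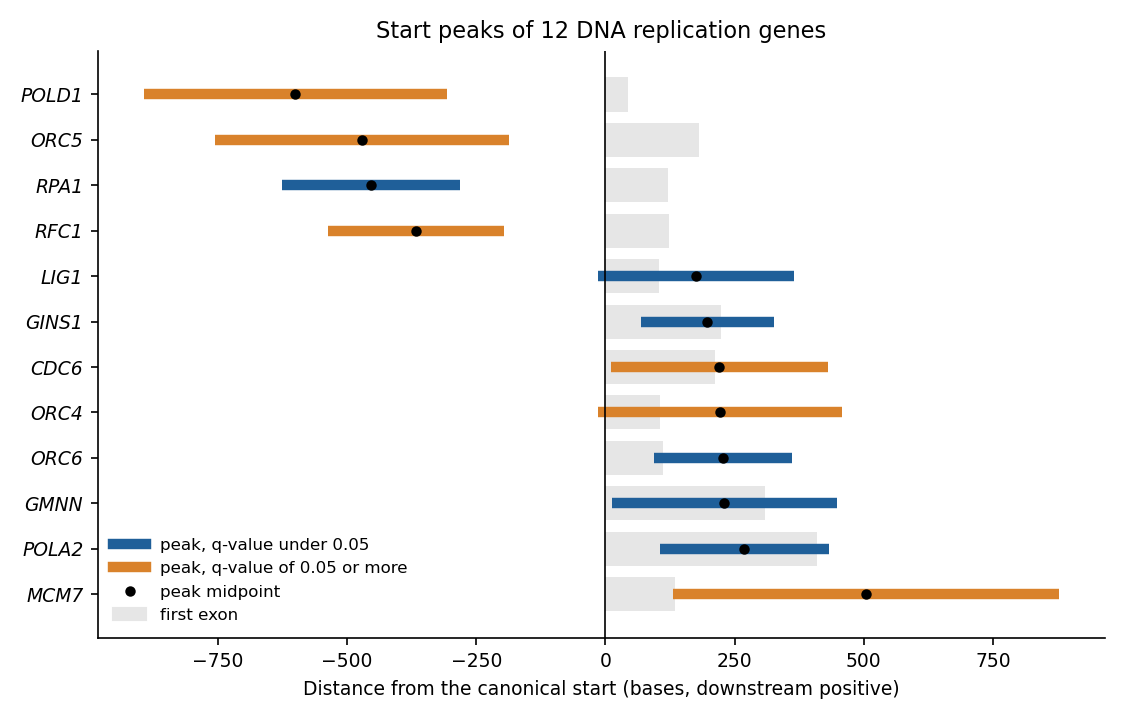
Extent of the start peaks of 12 DNA replication genes about the canonical start (x axis, bases, downstream positive), with peak midpoints as points, first exons in grey, and colour for a q-value under 0.05 or not. The 8 downstream peaks run past the end of the first exon, and the 4 upstream peaks end 187 to 306 bases before the start. POLD3, whose peak lies 98913 bases upstream, is not drawn.

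The 8 downstream peaks shared a feature of gene structure. Each overlapped the boundary between exon 1 and intron 1 of the canonical transcript, which was the case for 8 of 13 start peaks of replication genes (61.5%) against 1276 of 3088 start peaks of protein-coding genes with an intron (41.3%). This feature was chosen after the positions were seen. Both shares include upstream peaks, and no background share among downstream peaks alone is given. The boundary is where the first 5′ splice site lies. To show it, a stretch outside untranslated regions is printed for each of 4 such peaks. The stretches run 5′ to 3′ on the gene's strand, with the first 6 bases of intron 1 in capitals. They are chr16:46723666-46723933 (ORC6, plus strand, the whole peak), chr6:24775473-24775614 (GMNN, plus strand), chr20:25388532-25388635 (GINS1, plus strand) and chr11:65029764-65029865 (POLA2, plus strand), all on hg19.
ORC6: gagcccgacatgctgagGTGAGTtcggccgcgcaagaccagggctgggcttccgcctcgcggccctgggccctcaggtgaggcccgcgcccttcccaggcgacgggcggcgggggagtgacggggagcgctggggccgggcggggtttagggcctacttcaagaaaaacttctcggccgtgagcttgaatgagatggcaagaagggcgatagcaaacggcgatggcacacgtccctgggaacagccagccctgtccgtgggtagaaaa
GMNN: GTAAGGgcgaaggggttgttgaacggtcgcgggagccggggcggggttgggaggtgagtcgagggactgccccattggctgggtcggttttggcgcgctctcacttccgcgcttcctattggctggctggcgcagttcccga
GINS1: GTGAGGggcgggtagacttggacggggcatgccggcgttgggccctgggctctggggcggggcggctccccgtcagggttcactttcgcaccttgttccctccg
POLA2: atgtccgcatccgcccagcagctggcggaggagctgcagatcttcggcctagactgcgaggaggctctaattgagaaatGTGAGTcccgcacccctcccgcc
In ORC6 and POLA2 the capitals follow the coding end of exon 1, and in GMNN and GINS1 the printed stretch begins with the intron. The GINS1 peak also covers coding bases of exon 1, which are not printed. The printed stretches had a GC share of 66.8% in ORC6, 66.2% in GMNN, 71.2% in GINS1 and 62.7% in POLA2, with 24, 14, 9 and 7 CpG dinucleotides.

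The upstream peaks, those of ORC5, POLD1, RFC1 and RPA1, ended 187, 306, 197 and 281 bases before the canonical start. Only that of RPA1 held an annotated start of the gene. Over the whole peaks the GC share was 46.8% at ORC5, 56.9% at POLD1, 47.8% at RFC1 and 60.7% at RPA1. The whole downstream peaks of ORC4, CDC6, POLA2, GMNN, GINS1, ORC6, MCM7 and LIG1 had 59.2%, 59.2%, 63.7%, 65.1%, 66.0%, 66.8%, 69.6% and 69.8%. At RFC1, 30.9% of the 31-mers of the peak occurred more than once in hg19. No 31-mer recurred in the other 12 start peaks. The part of this recurrence in the call at RFC1 was not tested.

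Neighbouring genes shared some of the peaks. A protein-coding gene that starts within 1000 bases upstream on the other strand, a divergent partner, was present for 13 of 42 replication genes (30.95%) against 12.5% of all protein-coding genes. Such partners were found for 5 of 13 replication genes with a start peak (ORC4, ORC6, MCM7, RPA1 and LIG1) and for 8 of 29 without (27.6%). Only at RPA1 did the peak lie at a start of the divergent partner. In all, 3 of 13 replication genes (23.1%) shared their start peak with another protein-coding gene, POLA2 with ENSG00000285816, POLD3 with LIPT2 and RPA1 with SMYD4, against 18.8% of all protein-coding genes with a start peak. For POLD3 and RPA1 the protein-coding start nearest to the peak's midpoint belonged to the neighbour. Counting only peaks nearest to a start of the gene itself, an alternative added after the data were seen, left 11 of 42 (26.2%, interval 15.3 to 41.1) against 14.2%. Which of the neighbours a shared peak belongs to cannot be told from these data.

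The RPA1 and PCNA peaks are shown as examples of peaks at a neighbour's start, for the bases outside untranslated regions, on the strand of the replication gene and with E2F-type matches in capitals. They are chr17:1732754-1732995 (RPA1, plus strand) and chr20:5107767-5108024 (PCNA, minus strand), on hg19.
RPA1: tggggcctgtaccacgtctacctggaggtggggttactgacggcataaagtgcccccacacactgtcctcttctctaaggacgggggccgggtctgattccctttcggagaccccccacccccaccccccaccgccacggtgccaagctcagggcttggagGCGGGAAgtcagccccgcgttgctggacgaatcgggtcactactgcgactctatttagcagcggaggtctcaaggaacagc
PCNA: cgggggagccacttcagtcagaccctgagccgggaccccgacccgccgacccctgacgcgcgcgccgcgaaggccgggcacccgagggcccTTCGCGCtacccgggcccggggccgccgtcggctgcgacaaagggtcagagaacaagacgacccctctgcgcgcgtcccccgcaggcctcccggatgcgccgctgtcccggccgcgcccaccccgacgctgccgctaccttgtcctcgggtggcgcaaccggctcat
Each held 1 match, GCGGGAA at RPA1, which reads TTCCCGC on the other strand, and TTCGCGC at PCNA.

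E2F-type motifs were searched because these genes are known E2F targets. A match was TTCCCGC, or the same letters with CG, GC or GG in place of the CC after the opening TT, on either strand, and matches on opposite strands can overlap. Of the 42 promoters 30 (71.4%) held a match, against 16.9% of all protein-coding promoters of the same 300 bases, and 20 (47.6%) held the longer form with a further T in front, against 4.33%. A CCAAT box, CCAAT on either strand, was present in 24 (57.1%) against 35.9%. The 30 promoters held 52 E2F-type matches, of which 34, in 25 genes, began within 40 bases of the canonical start. No background share is given for this position. All 6 genes of the MCM2 to MCM7 ring had 1 or more E2F-type matches.

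Promoters of replication genes with and without a start peak held the motif at similar rates. A match was present in 9 of 13 with a start peak (69.2%) and in 21 of 29 without (72.4%). Among all protein-coding genes it was present in 21.4% with a start peak and 16.1% without. Over the whole length of the start peaks, matches were found in 4 of 13 (30.8%), those of GMNN, MCM7, RPA1 and LIG1, against 27.9% of the start peaks of all protein-coding genes. No match says only that these letters are absent from the window, and a match is a sequence description, not a measured E2F site.

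**Figure D4:**
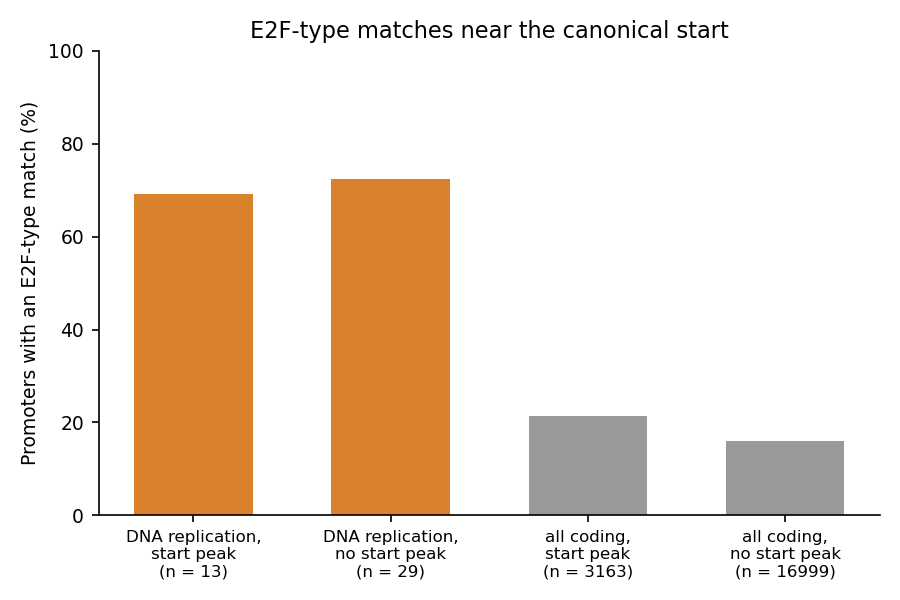
Share of promoters (y axis, percent) with an E2F-type match in the 250 bases before to 50 bases after the canonical start, for DNA replication genes with and without a YTHDC1 start peak (orange) and for all protein-coding genes with and without one (grey). The pair for replication genes is 69.2% and 72.4%, and the pair for all protein-coding genes 21.4% and 16.1%.

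For comparison, 80 bases of promoter sequence are shown for CDC6 and POLD3, which had a start peak, and ORC1, CDT1, MCM2 and MCM5, which had none. Each runs from position -60 to 20 about the canonical start, where the start is position 1, on the gene's strand, with E2F-type matches in capitals. On hg19 they are chr17:38444071-38444150 (CDC6, plus), chr11:74303567-74303646 (POLD3, plus), chr1:52870076-52870155 (ORC1, minus), chr16:88870137-88870216 (CDT1, plus), chr3:127317194-127317273 (MCM2, plus) and chr22:35796073-35796152 (MCM5, plus).
CDC6: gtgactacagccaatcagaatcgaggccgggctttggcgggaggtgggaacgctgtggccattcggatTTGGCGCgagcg
POLD3: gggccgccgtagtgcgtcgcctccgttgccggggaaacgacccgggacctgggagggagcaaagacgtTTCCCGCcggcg
ORC1: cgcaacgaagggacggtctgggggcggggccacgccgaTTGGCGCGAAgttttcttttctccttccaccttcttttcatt
CDT1: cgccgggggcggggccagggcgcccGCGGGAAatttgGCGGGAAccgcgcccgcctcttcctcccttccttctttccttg
MCM2: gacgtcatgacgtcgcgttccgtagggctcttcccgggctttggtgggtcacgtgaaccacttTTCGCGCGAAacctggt
MCM5: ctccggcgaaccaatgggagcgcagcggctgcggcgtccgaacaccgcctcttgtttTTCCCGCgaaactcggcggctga
The ORC1 and MCM2 runs of 10 capitals each hold 2 overlapping matches on opposite strands, beginning at positions -22 and -19 in ORC1 and at 4 and 7 in MCM2. The matches in CDC6 and POLD3 began at position 9. The CDC6 peak began 10 bases downstream of the start, within its match, and the POLD3 peak lay far upstream.

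Other properties of the promoters also overlapped between replication genes with and without a start peak. The median promoter CpG ratio was 0.96 (0.82 to 1.15) with a start peak and 0.99 (0.00 to 1.34) without, and the median GC share 63.3% (50.3 to 77.7) and 63.7% (32.7 to 78.3). The genes with a start peak had a median of 11 annotated starts (6 to 27), against 8 (2 to 31) for those without, and a median length of 55159 bases against 25298 bases. The direction was the same over all protein-coding genes, with medians of 8 against 5 starts and 35284 against 25775 bases. The 29 replication genes without a start peak lay a median of 65575 bases from the nearest peak, against 105934 bases for all protein-coding genes without one. Peaks within 10000 bases were found for 4 of the 29 (13.8%), PCNA, RFC4, POLD2 and POLE2, against 13.2%.

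A second list of 41 replication genes outside the 42, with roles in origin firing, fork protection, Okazaki fragments, clamp unloading, nucleotide supply and histone deposition, gave a like share. Start peaks were found at 14 of 41 (34.1%, interval 21.6 to 49.5) against the same 15.7%. With the canonical start alone it was 8 of 41 (19.5%, interval 10.2 to 34.0) against 11.7%, and with a q-value under 0.05 it was 7 (17.1%, interval 8.5 to 31.3) against 8.96%. Under both of these the background lay inside the interval. Origin firing and licensing held 5 of 10 such genes, against the same 15.7% of all protein-coding genes. They were TICRR, an activator of origin firing (−log10 q 1.17), DONSON, a replisome factor (1.19), and DBF4B, a second activator of CDC7 (0.78). The others were MCMBP, a binding partner of MCM proteins (0.83, with a start of SEC23IP 104 bases from the peak), and MCM9, a relative of the MCM helicase (1.91). The MCMBP and MCM9 peaks lay 19535 and 40519 bases from the canonical start. TICRR, MCMBP and MCM9 were lost with the canonical start alone. Of the 5, only MCM9 had a q-value under 0.05. The MCM9 peak was also the peak of ASF1A, a histone chaperone, so the 14 genes had 13 different peaks. The highest values were those of PCLAF, a PCNA-binding protein (3.75), and of POLE4, a small subunit of polymerase epsilon (3.66). The PCLAF peak held 6 annotated starts of TRIP4 and lay 6196 bases upstream of the canonical PCLAF start. RNASEH2B and RNASEH2C, subunits of the ribonuclease H2 enzyme, had −log10 q values of 1.64 and 1.85. TIMELESS, of the fork protection complex, had 1.08, and NASP, a histone chaperone, 1.36. RRM2, the small subunit of ribonucleotide reductase, had 0.74 and TOP2B, a topoisomerase, 0.64. The RRM2 peak lay 2042 bases upstream of the canonical RRM2 start. PCLAF, RRM2 and TOP2B were also lost with the canonical start alone. A q-value under 0.05 was reached by 7 of the 14.

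How a start peak was defined moved the count for the 42 genes. With windows of 500 and 1000 bases it was 14 (33.3%) and 15 (35.7%), against 18.6% and 20.0% of all protein-coding genes, PCNA being added first and RFC4 next. Both were added through an alternative start, not the canonical one. Requiring the peak's midpoint inside the 200-base window left 6 genes, CDC6, GINS1, LIG1, MCM7, ORC6 and RPA1 (14.3%, interval 6.7 to 27.8), against 10.8%. Requiring a q-value under 0.05 left 7 (16.7%, interval 8.3 to 30.6) against 8.96%. Under both of these the background lay inside the interval.

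**Figure D5:**
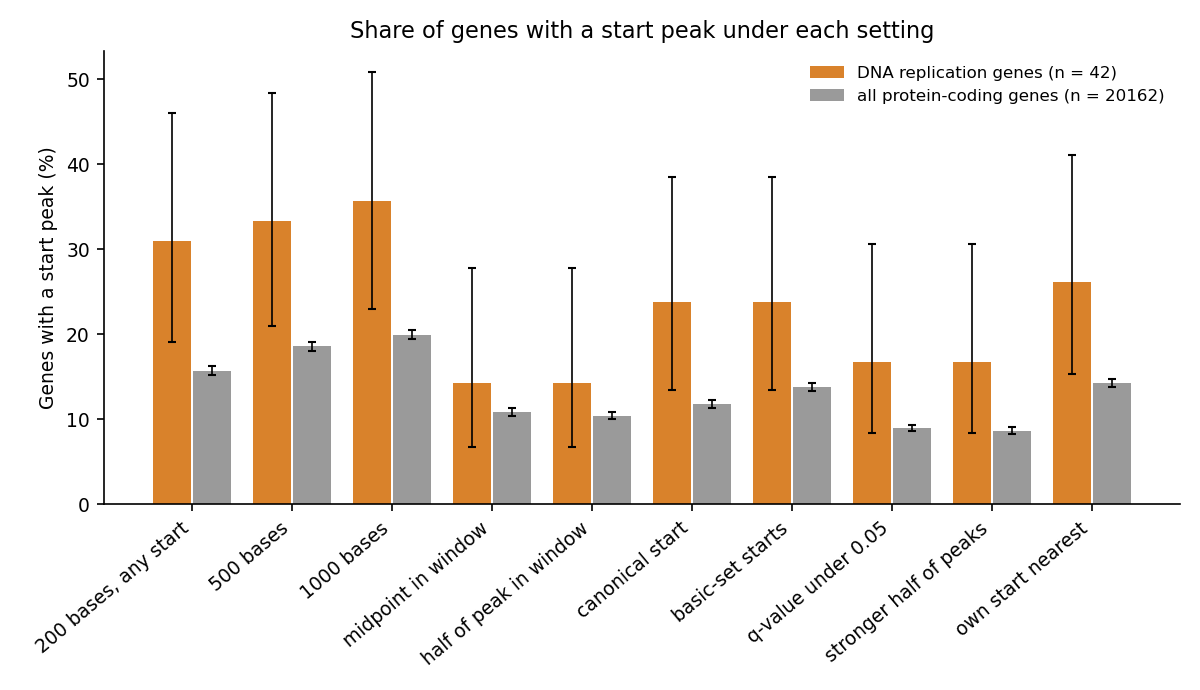
Percent of genes with a start peak under the definition used here and 9 others, for the 42 DNA replication genes (orange) and all 20162 protein-coding genes (grey), with 95% Wilson intervals that treat genes as units. The replication genes are above the background under each definition, between 14.3% and 35.7%. Their intervals are wide and under some definitions include the background.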

How the data were processed

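Per the methods, the authors crosslinked A549 cells, aligned the reads to hg19 and ran MACS2 in broad mode on the 3 replicates together, with 0.1 as the q-value threshold and 0.25 for broad regions. The methods name Bowtie2 as aligner and the submitters' processing notes BWA. No control library for peak calling is given in the sources used here. The deposited value of each peak was read as −log10 q-value, an inference from its minimum of 0.610, just above −log10 of the broad cutoff (0.602). Depth per sample is unknown, and the labels do not say whether replicates were separate cultures.

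Genes, starts and canonical transcripts came from GENCODE release 44 on hg19, and sequences from the same assembly. Where a gene had several start peaks, the one with the highest −log10 q stood for it. Every member with a peak was named, and of the others those within 10000 bases of a peak or at the extremes. Every gene of the second list with a start peak was named too. Distances to the nearest peak were also given for whole complexes, a choice made after the values were seen. Members and lists were chosen with earlier results of these data known. Intervals are 95% Wilson intervals over genes. They cover counting only, and genes sharing a peak do not count independently. Alternatives changed the window, the overlap, the starts, the peak threshold and the assignment of shared peaks. No test between groups was possible. Counting was tested on simulated peaks. Python 3.11.15, pandas 2.3.3, scipy 1.17.1 and numba 0.67.0 were used. A sequence withheld for evaluation is not reported here.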

Additional observations from a re-analysis of the deposited data

How the results depend on the processing

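The 42 replication genes had start peaks in 13 cases. Requiring the peak's midpoint or at least 50% of the peak inside the window gave 6 in both cases, and a q-value under 0.05 or a −log10 q above the median of all peaks gave 7 in both cases. For all protein-coding genes (3163), requiring 50% of the peak gave 2091, a q-value under 0.05 gave 1806 and peaks above the median 1741. For the second list (14), the midpoint and the 50% rule gave 9 each, the canonical start 8, and a q-value under 0.05 and peaks above the median 7 each. Peaks inside genes (2 of 42) became 1 above the median and 11 with peaks at starts counted too. The median −log10 q of the members' start peaks (1.37) became 2.32 above the median, by construction. The midpoint and 50% rules lost GMNN, ORC4, ORC5, POLA2, POLD1, POLD3 and RFC1, and the q-value rule lost CDC6, MCM7, ORC4, ORC5, POLD1 and RFC1. The other 21 values stayed within 1.5 times the reported count or within the spread among genes.

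No paired analysis was possible because the replicates were pooled before peak calling and form a single group. For the same reason no replicate was left out in turn. With 13 genes the share of 30.95% has an interval of 19.1 to 46.0, and the depth of the pooled reads, which limits what was called, is unknown.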
